A study of Rattus norvegicus with 17 samples.

Results

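This account follows 10 genes that fat cells use to store lipid and to send hormones, in skin explants of hairless rats. They were chosen by name (Adipoq, Plin1, Plin4, Cfd, Lep, Fabp4, Lpl, Cidec, Retn and Lipe), out of 15154 genes named on the array, and their probes were found by matching the sequence name of each probe to RefSeq accessions. Named probes were found for 8 of the 10 genes, none was matched for the lipid droplet coat genes Plin1 and Plin4, and the Lep probe lay at background in all 17 arrays, which left 7 measured genes. The rats were male CD hairless rats, 2 to 3 months old at the start. The exposed rats received 94 GHz millimetre waves during 5.5 months, in sessions of 3 h on 3 days of each week, and the sham rats were sham exposed. All were housed in pairs, and the explants were kept in RNA later. There are 9 exposed and 8 sham arrays, whose replicate numbers are names given here in accession order and pair no arrays. The stated numbers of animals are 6 and 8, so some exposed arrays may come from the same rat. If they do, the p-values printed for exposed against sham skin are likely to be smaller than they should be. The bearing on the other tests was not tested. The labels link no array to a rat, and the error behind each p-value is that between arrays, which may be technical.

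White fat cells keep triglyceride in a single large droplet. Lipoprotein lipase frees fatty acids from blood lipoproteins, a fatty acid binding protein carries them inside the cell, coat and fusion proteins build and guard the droplet, and hormone-sensitive lipase breaks the stored fat down again. The same cells secrete adipokines, among them adiponectin, leptin, the complement factor D (adipsin) and, in rodents, resistin. In rodent skin they form a layer under the dermis, above the panniculus muscle, and lie around the hair follicles.

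Promoters are shown for 5 of the 7 genes that have an entry in the RefSeq promoter set used here. Fabp4, Lpl and Lipe have none there. Adipoq, Cidec and Cfd were among the closest to one another in pattern over the arrays, Retn varied most, and Lep lay at background. Each run holds the 250 bases before the annotated start of the gene, from RefSeq on GRCr8, written 5′ to 3′ on the strand of the gene. Capitals mark matches, on either strand, to the CCAAT box (CCAAT), to a C/EBP pattern (TTGCNNAA), to the nuclear receptor half-site (AGGTCA) and to the TATA box (TATAAA).
Adipoq, chr11:91240170-91240419, minus strand: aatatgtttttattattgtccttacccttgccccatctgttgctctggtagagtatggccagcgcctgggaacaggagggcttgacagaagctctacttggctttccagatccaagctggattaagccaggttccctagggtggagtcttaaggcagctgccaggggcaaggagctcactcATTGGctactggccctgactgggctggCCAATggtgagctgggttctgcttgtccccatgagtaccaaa
Cidec, chr4:148137116-148137365, minus strand: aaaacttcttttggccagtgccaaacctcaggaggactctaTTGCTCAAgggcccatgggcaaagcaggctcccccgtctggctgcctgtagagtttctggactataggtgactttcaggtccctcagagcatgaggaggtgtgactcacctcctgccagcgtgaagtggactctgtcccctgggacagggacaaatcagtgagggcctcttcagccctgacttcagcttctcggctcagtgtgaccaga
Cfd, chr7:10465497-10465746, minus strand: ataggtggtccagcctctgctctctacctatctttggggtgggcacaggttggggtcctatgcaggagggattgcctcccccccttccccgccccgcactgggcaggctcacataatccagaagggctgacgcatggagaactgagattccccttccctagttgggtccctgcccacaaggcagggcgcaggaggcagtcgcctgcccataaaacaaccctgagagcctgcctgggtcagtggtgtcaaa
Retn, chr12:6508524-6508773, plus strand: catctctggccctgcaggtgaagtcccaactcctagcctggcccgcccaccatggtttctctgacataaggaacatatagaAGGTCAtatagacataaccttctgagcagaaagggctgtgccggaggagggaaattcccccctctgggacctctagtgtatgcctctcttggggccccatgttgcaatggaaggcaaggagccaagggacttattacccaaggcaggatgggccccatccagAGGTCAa
Lep, chr4:58626288-58626537, plus strand: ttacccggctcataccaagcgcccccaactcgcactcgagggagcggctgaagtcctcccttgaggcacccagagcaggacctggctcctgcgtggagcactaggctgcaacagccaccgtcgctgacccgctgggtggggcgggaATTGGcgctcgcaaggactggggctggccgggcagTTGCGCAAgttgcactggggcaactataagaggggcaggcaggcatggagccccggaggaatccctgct

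The Adipoq window held 2 CCAAT boxes, 69 and 42 bases before the start. Cidec held 1 C/EBP pattern 209 bases before the start, and Lep held both a CCAAT box, 104 bases before it, and a C/EBP pattern, 69 bases before it. Retn held 2 nuclear receptor half-sites, 169 and 7 bases before the start, and the Cfd window held none of the patterns. None of the 5 windows held the TATA letters. Of all 33469 promoter windows of this length in the same RefSeq table, 34.0% held a CCAAT box, 9.2% the C/EBP pattern, 14.1% the half-site and 12.9% the TATA box, and the matches do not overlap one another in the 5 windows shown. A match is a run of letters and not a measured site.

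Values are log2 of the fluorescence of a probe relative to the 75th percentile of its array, so that a step of 1 is a doubling. They can be compared between arrays but not between genes, since probes bind with unequal strength. The 75th percentile ran from 1077 to 1703 over the 17 arrays, 66.7% to 70.8% of probes lay well above background, and no spot was saturated. The arrays lay on 4 slides, each with arrays of both groups. Of the markers of other skin tissues, all 6 measured genes of basal keratinocytes and all 7 of differentiated keratinocytes were well above background on all arrays. In such bulk tissue fewer fat cells and less RNA per fat cell cannot be told apart.

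Exposed and sham skin did not differ past the threshold in any fat cell gene or any other probe. Of 20710 probes tested, 0 (0%) had an adjusted p under 0.05 (limma, Benjamini-Hochberg), 943 (4.55%) had an unadjusted p under 0.05 (0.594% higher and 3.96% lower in exposed skin), and 0 of the 7 fat cell genes did. All 7 had the higher mean in exposed skin, against 38.7% of all probes, and their median log2 difference was 0.34, against -0.02 over all probes. The Lipe difference was 0.03, and its second probe had the lower mean in exposed skin, at -0.03. These 7 genes were read on the same arrays and those other than Lipe varied together, so that they do not count as 7 separate observations. In every one of them the values of the groups overlapped, with at most 1 exposed array above the highest sham array.

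**Figure D1:**
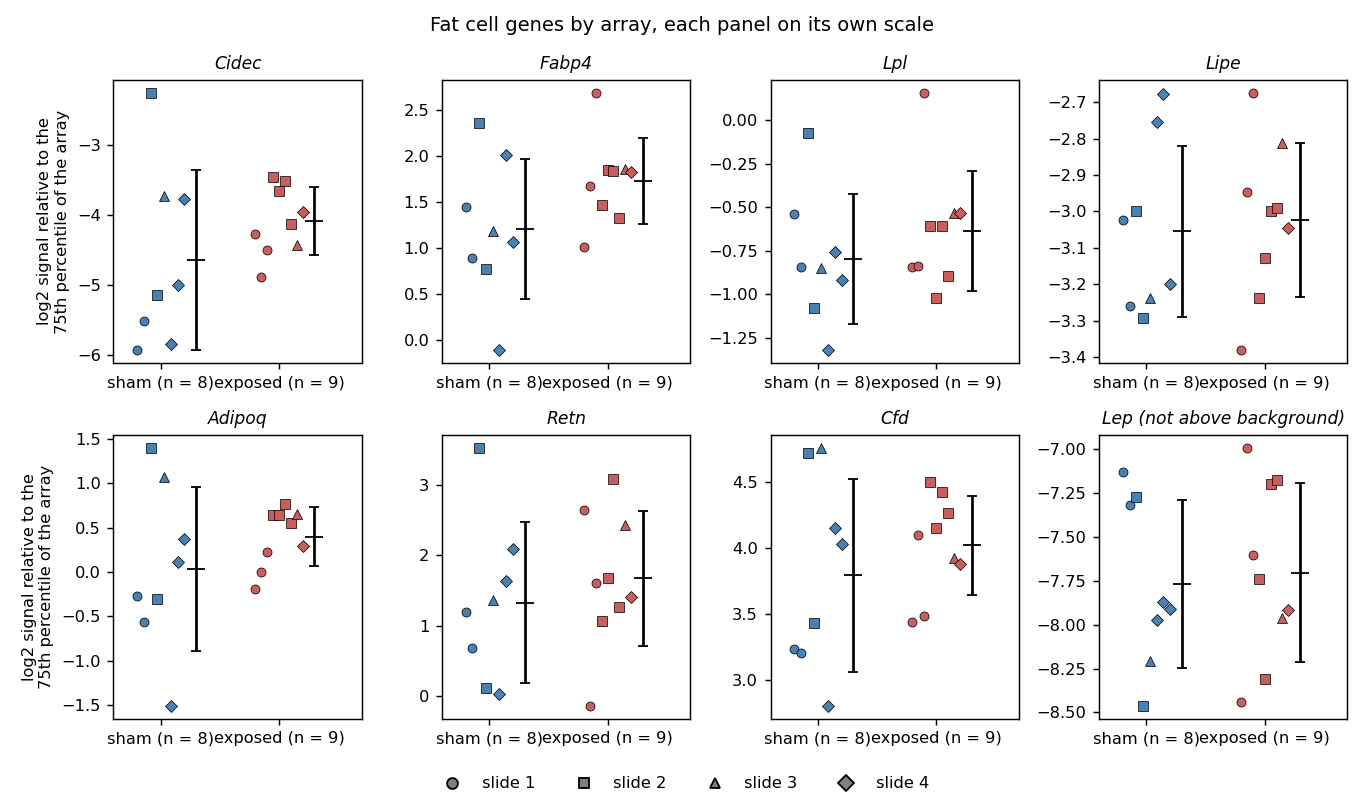
Log2 signal relative to the 75th percentile of the array (vertical axis, own scale in each panel) for the 8 genes with a named probe, in sham (blue, n = 8) and exposed (red, n = 9) arrays; symbols give the slide, and the bar to the right of the points is the mean ± SD. The groups overlap in every panel, and the sham arrays of Cidec, Adipoq and Cfd span more than the exposed ones.

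Among the lipid storage genes, Cidec encodes a protein that fuses small droplets into large ones. Its log2 values ran from -5.93 over a median of -5.08 to -2.26 in sham skin, and from -4.89 over -4.14 to -3.47 in exposed skin. All 9 exposed values exceeded the median of the sham arrays, but the highest value of all was that of sham replicate 3, and the signal on sham replicate 6 was not well above background. The difference was 0.55, or 1.47-fold, with a 95% interval of 0.78-fold to 2.76-fold (limma adjusted p = 0.983). With another background correction, normexp with an offset of 50, the difference was 0.12. With the main correction and without sham replicate 3 it was 0.90. Fabp4, the fatty acid carrier of the cytoplasm, ran from -0.11 over 1.13 to 2.36 in sham skin and from 1.01 over 1.83 to 2.69 in exposed skin. The means were 1.72 ± 0.46 (SD, n = 9) in exposed and 1.20 ± 0.76 (SD, n = 8) in sham arrays. The lowest value was that of sham replicate 6 and the highest that of exposed replicate 3. Fabp4 had the smallest unadjusted p of the 7 genes, 0.0833 in limma, with 1.44-fold more signal in exposed skin (95% interval 0.95-fold to 2.17-fold, adjusted p = 0.983). On 8 of the 9 exposed arrays Fabp4 exceeded the median of the sham arrays, and without sham replicate 6 the difference was 0.33 in place of 0.52.

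Of the enzymes that move fat into and out of the cell, Lpl, the lipase that frees fatty acids from lipoproteins in blood, ran from -1.32 over -0.85 to -0.07 in sham skin and from -1.02 over -0.61 to 0.16 in exposed skin. It was read from a probe with 10 spots on each array. Its difference was 0.16 (95% interval -0.19 to 0.51, limma adjusted p = 0.983), and it was 0.062 without exposed replicate 3, the highest array, 0.087 without sham replicate 6 and 0.26 without sham replicate 3. Lipe, hormone-sensitive lipase, varied least of the 7 genes, from -3.29 over -3.11 to -2.68 in sham skin and from -3.38 over -3.00 to -2.67 in exposed skin. The difference was 0.03 (-0.19 to 0.25, adjusted p = 0.988), and a second Lipe probe gave -0.03 (-0.30 to 0.23). Without single arrays the difference ran from -0.012 to 0.085. The interval of the first probe, 0.876-fold to 1.19-fold, was the narrowest of the 7.

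Of the adipokines, adiponectin (Adipoq), a hormone made by fat cells that raises insulin sensitivity, ran from -1.51 over -0.08 to 1.39 in sham skin and from -0.20 over 0.55 to 0.77 in exposed skin. The sham arrays held both the lowest value, in replicate 6, and the highest, in replicate 3, while 8 of the 9 exposed values exceeded the median of the sham arrays. The difference was 0.36, or 1.28-fold (95% interval 0.82-fold to 2.02-fold, limma adjusted p = 0.983). It was 0.14 without sham replicate 6 and 0.55 without sham replicate 3. Cfd, the serine protease factor D of the alternative complement pathway, ran from 2.81 over 3.73 to 4.75 in sham skin and from 3.44 over 4.10 to 4.50 in exposed skin. All exposed values thus lay inside the range of the sham values, and the difference was 0.23 (-0.32 to 0.78, adjusted p = 0.983), or 0.086 without sham replicate 6. It was 0.15 and 0.14 without sham replicates 1 and 2 in turn, and 0.36 and 0.36 without sham replicates 3 and 5 in turn. Retn, which encodes resistin, ran from 0.03 over 1.28 to 3.52 in sham skin and from -0.13 over 1.60 to 3.08 in exposed skin. The difference was 0.34 (-0.66 to 1.35, adjusted p = 0.983), the widest interval of the 7, and the lowest array was exposed replicate 2 and the highest sham replicate 3. Without these arrays in turn it was 0.57 and 0.66, and it was 0.16, 0.17, 0.17 and 0.22 without sham replicates 6 and 4 and exposed replicates 6 and 1 in turn. Lep, the gene of the satiety hormone leptin, was well above background on 0 of 9 exposed and 0 of 8 sham arrays. Its signal was 3.75 to 11.2 units, and the dimmest probe well above background on each array was at 4.40 to 11.6 units. On 8 of the arrays Lep lay below that probe of the same array, and on the rest above it. No difference is given for Lep.

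**Figure D2:**
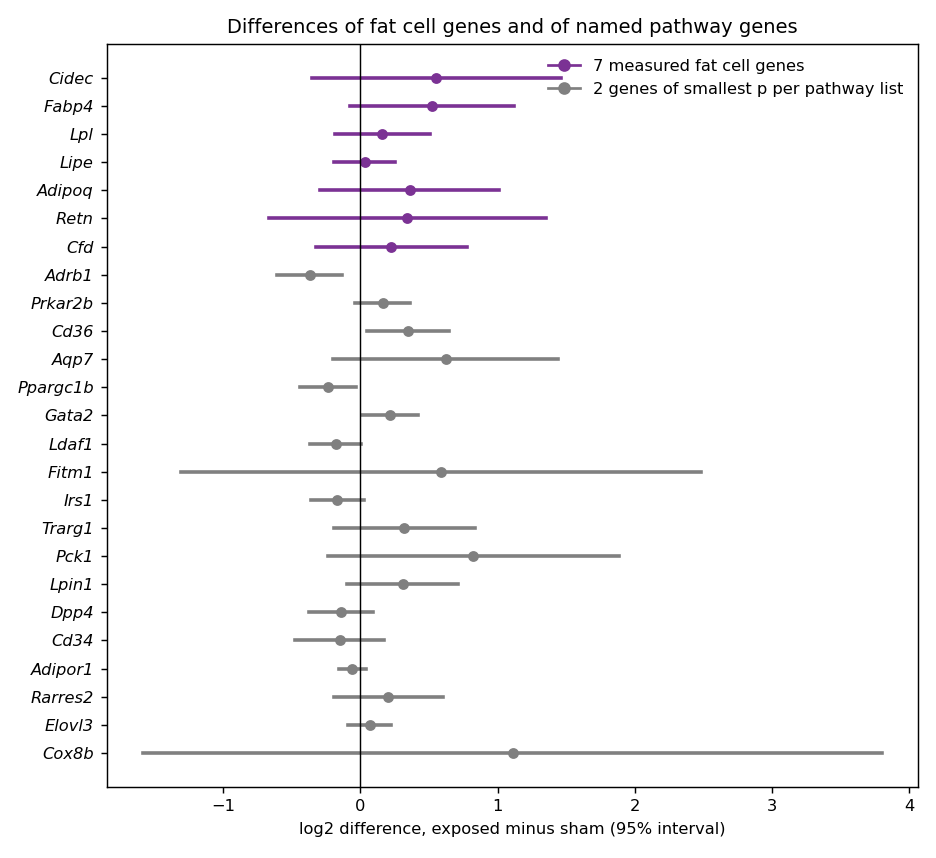
Log2 difference of exposed minus sham arrays (horizontal axis) with its 95% interval from limma, for the 7 measured fat cell genes (purple) and for the 2 genes of smallest p in each of 9 lists of related genes (grey). All 7 purple points lie between 0.03 and 0.55 and all 7 intervals cross 0.

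Slide, with 4 levels against the 2 groups, held more of the variance than exposure in 6 of the 7 genes. The exception was Fabp4, with 6.15% of its variance between slides and 16.7% between groups. For Adipoq the shares were 42.0% and 7.37%, for Cfd 41.0% and 4.30%, and for Cidec 36.0% and 8.86%. For Lipe they were 11.7% and 0.552%, for Lpl 9.99% and 5.47%, and for Retn 8.52% and 2.94%. A factor with more levels takes up more variance even without an effect, and the same count over all probes was not computed. The mean Adipoq value was -0.16, 0.62, 0.86 and -0.18 on slides 1 to 4. None of the 7 genes passed the limma test between slides (smallest unadjusted p = 0.0572, for Adipoq), as did 0 (0%) of all probes, of which 7.93% had an unadjusted p under 0.05. With slide as a block the differences between exposed and sham skin ranged from 0.09 for Lipe to 0.47 for Fabp4, and Adipoq was at 0.24.

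Within single slides the differences did not all keep their sign. Adipoq differed by 0.42, 0.11, -0.41 and 0.64 on slides 1 to 4, Cfd by 0.46, 0.26, -0.83 and 0.21, and Cidec by 1.17, 0.005, -0.70 and 0.91. Slide 3, on which these 3 genes were lower in exposed skin, holds 1 array of each group. Fabp4 was higher in exposed skin on all 4 slides, by 0.62, 0.053, 0.67 and 0.84. Retn differed by 0.43, -0.044, 1.07 and 0.16, Lpl by 0.18, -0.21, 0.32 and 0.46, and Lipe by 0.14, 0.057, 0.43 and -0.17. The test of whether the difference depends on the slide passed for 0 of the 7 genes (limma, adjusted p = 0.998 for each), against 0.0145% of probes, and 4.35% of probes had an unadjusted p under 0.05, as did 0 of the 7.

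The fat cell genes other than Lipe differed between arrays more than most genes did. Their SD over the 17 arrays ran from 0.22 for Lipe to 1.03 for Retn, with a median of 0.66, against a median of 0.19 over all kept probes. Retn stood at the 98.0th percentile of all probes by this SD, Cidec at the 97.8th, Adipoq at the 95.7th, Fabp4 at the 95.4th, Cfd at the 93.5th, Lpl at the 81.0th and Lipe at the 56.1st. From the lowest to the highest array the signal spanned 12.7-fold for Cidec, 12.6-fold for Retn and 7.47-fold for Adipoq, and 1.63-fold for Lipe.

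The SD was larger in sham than in exposed arrays for all 7 genes, against 56.5% of all probes, but the difference in spread passed the test for none. The sham SD was 2.75 times as large for Adipoq, 2.65 times for Cidec, 1.95 times for Cfd, 1.64 times for Fabp4 and 1.08 to 1.19 times for Lpl, Lipe and Retn. The test of this ratio was chosen after the spreads had been seen. It gave an exact permutation p of 0.00847 for Cidec, 0.0362 for Cfd and 0.0546 for Adipoq (two-sided, over 24310 splits of the residuals), and none passed after adjustment over the 7 genes, with adjusted p = 0.0593, 0.127 and 0.127. The ratio for Adipoq was 2.19 without sham replicate 6, and that for Cidec, whose signal was dim on sham replicates 1 and 6, was 1.88 without sham replicate 3. It fell below 1 for Lpl (0.716) and Retn (0.806) without sham replicate 3, and for Lipe (0.914) without sham replicate 7. Arrays that share an animal would be counted as separate in the exposed group, and whether that bears on these ratios was not tested.

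The measured genes other than Lipe moved together from array to array. Over the 21 pairs of the 7 genes Pearson's r across the arrays had a median of 0.51, given here as a description. The closest were Adipoq with Cfd at 0.91, Cidec with Adipoq at 0.87, Fabp4 with Lpl at 0.83 and Cidec with Cfd at 0.83. The 15 pairs without Lipe ran from 0.26 to 0.91, and the 6 pairs with Lipe from -0.21 to 0.39. The Lipe values are those of its probe of higher mean, and r was not computed for its second probe. With slide means removed the median over all pairs was 0.58, and Adipoq with Cfd was at 0.88.

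A pair of subsets, picked after the values had been seen, stood out in the exposed arrays. In sham arrays the 15 pairs without Lipe were all at 0.58 or above. In exposed arrays Adipoq, Cfd and Cidec had an r of 0.59 to 0.73 with one another, and Fabp4, Lpl and Lipe an r of 0.65 to 0.82, while Adipoq with Fabp4 was at 0.20 and Cfd with Lpl at -0.42. In sham arrays Fabp4 with Lipe was at 0.13 and Lpl with Lipe at 0.015, so that of those 3 pairs Fabp4 with Lpl alone was high in both groups. Exposed replicate 3 was the highest of all arrays for Fabp4, Lpl and Lipe, and r in exposed arrays without it was not computed. Lipe stands here for its probe of higher mean. The second Lipe probe was highest in sham replicate 7. Its r with the other genes was not computed, so whether the Lipe values hold for both probes is not known. The median over all pairs was 0.73 in sham and 0.11 in exposed arrays, and whether these differ was not tested. Without sham replicates 3 and 6, chosen after their values had been seen, the median over all arrays was 0.23, Adipoq with Cfd was at 0.88 and Fabp4 with Lpl at 0.75, while Cidec with Fabp4 was at 0.16. Cidec with Lpl was then at -0.03 and Lpl with Cfd at -0.18.

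**Figure D3:**
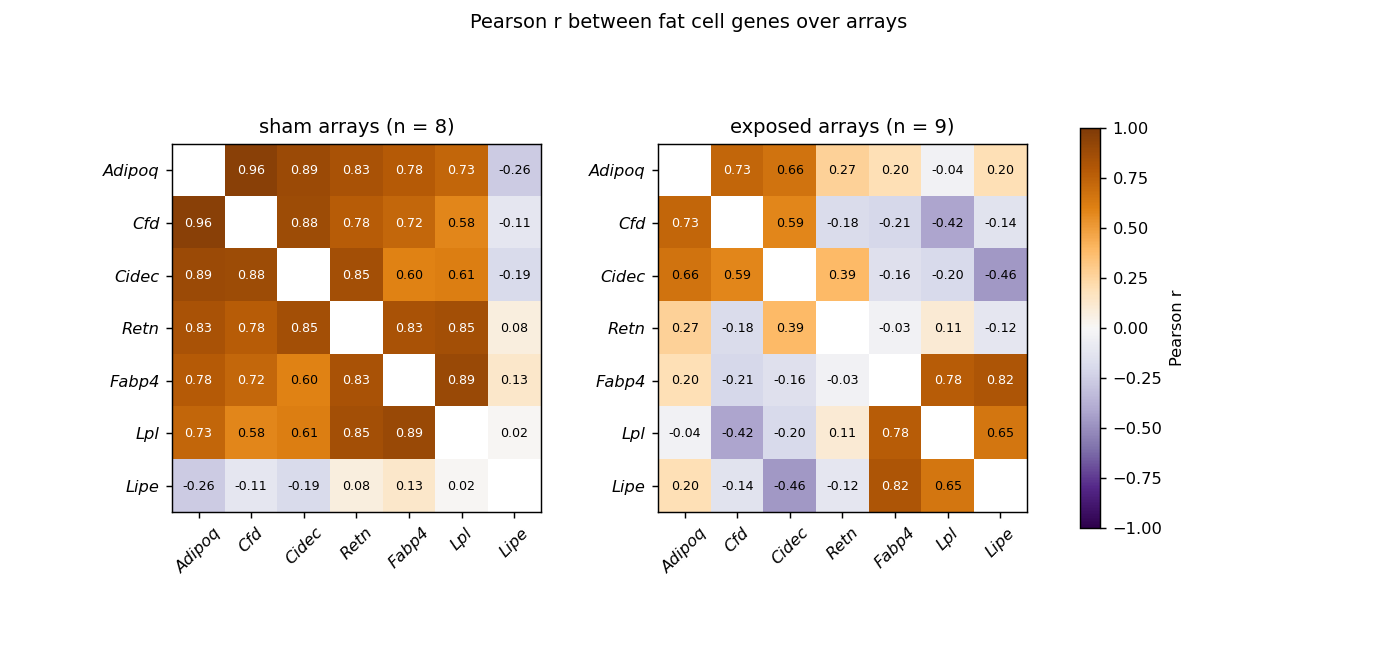
Pearson r between each pair of the 7 measured fat cell genes over the 8 sham arrays (left) and the 9 exposed arrays (right); colour and printed number give r. The sham panel is high throughout apart from Lipe, and the exposed panel holds a block of Adipoq, Cfd and Cidec and a block of Fabp4, Lpl and Lipe. Exposed replicate 3 is the highest of all arrays for Fabp4, Lpl and Lipe. Lipe is shown by its probe of higher mean, and its second probe, highest in sham replicate 7, is not shown.

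Averaged over the 7 genes, each taken relative to its own mean, sham replicate 6 lay lowest, at -1.10, and sham replicate 3 highest, at 1.09. Sham replicate 6 was the lowest array for 4 of the 7 genes, and sham replicate 3 and exposed replicate 3 were each the highest for 3. Sham replicate 6 also had the lowest 75th percentile of all arrays (1077) and the lowest share of probes well above background (66.7%). Whether that bears on its low values was not tested. The 4 lowest arrays by this mean were all sham, replicates 6, 4, 2 and 1, from -1.10 to -0.42. The exposed arrays ran from -0.30 to 0.56, inside the sham range, with means of 0.15 ± 0.25 (SD, n = 9) and -0.17 ± 0.68 (SD, n = 8) in exposed and sham arrays.

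The 12 named genes whose pattern over the 17 arrays was most like that mean, out of 11160 compared, had a Pearson r of 0.87 to 0.95. They were the glutamine transporter Slc1a5 (0.95), the calcium binding protein gene S100b (0.94), Abcd2 (0.91), which carries very long chain fatty acids into peroxisomes, the glycerol channel Aqp7 (0.90) and the amino acid transporter Slc7a10 (0.90). Next came carbonic anhydrase 3 (Car3, 0.89), the amine oxidase Aoc3 (0.89), Mrap (0.89), which encodes an accessory protein of melanocortin receptors, and the retinol carrier Rbp4 (0.88). The last of the 12 were the matrix protease Adamts5 (0.87), Enpp2 (0.87), the gene of the lysophospholipid enzyme autotaxin, and Angpt4 (0.87). When ranked by Spearman's rho, 6 of these 12 stayed among the first 12. Without sham replicates 3 and 6 their r ran from 0.73 for Adamts5 to 0.89 for Slc1a5. The 4 genes with the lowest r were Cep95 (-0.86), Lrch1 (-0.85), Tmem276 (-0.84) and Adck2 (-0.83).

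Several of these genes differed between arrays as much as the fat cell genes. Car3 had an SD of 1.84 over the arrays, Abcd2 of 1.10, Aqp7 of 0.89 and Slc1a5 of 0.34. None passed the test between the groups, with limma adjusted p of 0.983 or above, Car3 at 1.25, Abcd2 at 0.88, Aqp7 at 0.62 and Adamts5 at -0.01 on the log2 scale.

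Each fat cell gene was also set against the mean of the other 6. Adipoq had the highest r, 0.90, above 99.97% of the other named genes, Cidec was at 0.80, Cfd at 0.74, Fabp4 at 0.70, Retn at 0.69 and Lpl at 0.61. Lipe, by its probe of higher mean alone, was at 0.01, above 55.3% of those genes.

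**Figure D4:**
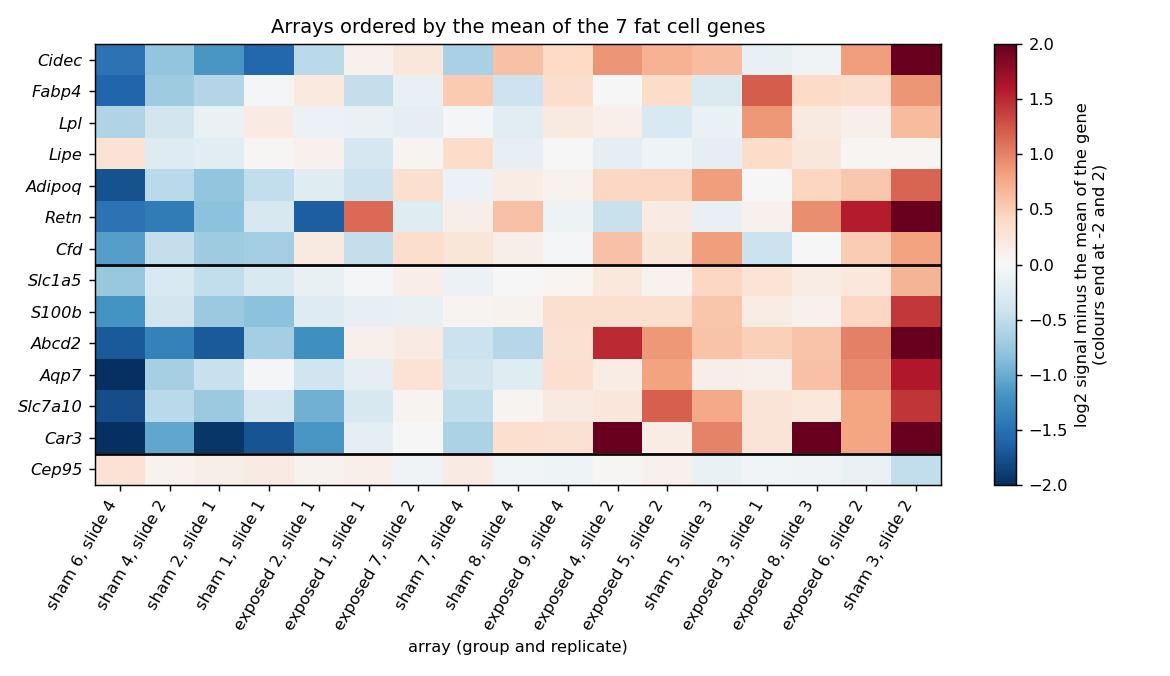
Log2 signal minus the mean of the gene (colour, ending at -2 and 2) for the 7 measured fat cell genes, 6 of the genes most like them and Cep95, the most unlike, with the 17 arrays in order of the mean of the fat cell genes. The mean of the 7 genes runs from -1.10 at sham replicate 6 to 1.09 at sham replicate 3, and the Lipe row, its probe of higher mean, does not follow it.

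Markers of other skin tissues varied over the same arrays. A list score is the mean over the list of log2 values relative to each gene's own mean. The skeletal muscle score, from 11 of 14 listed genes, ran from -3.04 over a median of -0.34 to 5.36 in exposed and from -3.06 over -2.49 to 4.75 in sham arrays. Its mean was higher in exposed arrays by 1.495, a difference that was not tested. The means of all 7 measured fat cell genes were higher too, that of Lipe by 0.03, with its second probe at -0.03. The basal keratinocyte score, from 6 of 8 genes, ran from -0.29 to 0.16 and from -0.20 to 0.26, and the hair follicle score, from 10 of 13, from -2.58 to 1.81 and from -5.38 to 1.87. The hair follicle mean was higher in exposed arrays by 0.61, and the other scores differed by -0.11 for differentiated keratinocytes, -0.063 for basal keratinocytes, 0.062 for dermal matrix, 0.12 for endothelium, 0.028 for sebaceous glands and 0.027 for macrophages. The score of differentiated keratinocytes ran from -0.42 to 0.21 in exposed and from -0.18 to 0.21 in sham arrays, that of the dermal matrix from -0.37 to 0.32 and from -0.52 to 1.22, that of sebaceous glands from -0.17 to 0.17 and from -0.34 to 0.33, that of endothelium from -0.31 to 0.43 and from -0.26 to 0.54, and that of macrophages from -0.34 to 0.23 and from -0.51 to 0.76. Of the 11 sebaceous genes 4 also stand in the lists of fat cell pathways.

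Relations of the 7 genes with the 8 scores were tested, 56 in all, by two-sided permutation with adjustment over the 56. Of these, 8 passed for Pearson's r and 5 for Spearman's rho. The share of all named genes that would pass against the same scores was not computed. These relations can therefore not be called particular to fat cell genes. Adipoq went with the muscle score, with r = 0.69 (permutation adjusted p = 0.0253) and rho = 0.75 (permutation adjusted p = 0.0461). Its r was 0.73 without the 2 arrays farthest from the median score and 0.48 with slide means removed. Cfd had r = 0.65 (permutation adjusted p = 0.045) and rho = 0.72 (permutation adjusted p = 0.0461), with r = 0.71 without those arrays and 0.48 with slide means removed. The muscle score was highest in sham replicate 3 and exposed replicates 4 and 8. It was lowest in sham replicate 4 (-3.06), exposed replicate 9 (-3.04) and sham replicate 6 (-3.04). In the same order, the mean of the 7 fat cell genes on these lowest arrays was -0.65, 0.12 and -1.10. The r was 0.57 in exposed and 0.82 in sham arrays for Adipoq, and 0.35 and 0.86 for Cfd.

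Fabp4 and Lpl ran against the keratinocyte scores. Against the basal score r was -0.75 for Fabp4 and -0.74 for Lpl (permutation adjusted p = 0.0227 for both), and -0.75 and -0.73 with slide means removed. By rank neither passed (rho = -0.59, permutation adjusted p = 0.0946, and rho = -0.45, permutation adjusted p = 0.186). Without the 2 arrays farthest from the median r was -0.48 and -0.47 (unadjusted permutation p = 0.0748 and 0.081), so that the size of both depends in part on those arrays. Against the score of differentiated keratinocytes Fabp4 had r = -0.67 (permutation adjusted p = 0.0348) and rho = -0.67 (permutation adjusted p = 0.0461), with r = -0.59 without the 2 farthest arrays and -0.69 with slide means removed. Lpl passed there by rank (rho = -0.67, permutation adjusted p = 0.0461) and not by r (-0.62, permutation adjusted p = 0.051), which was -0.47 without the 2 farthest arrays and -0.60 with slide means removed.

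Lipe, by its probe of higher mean alone, went with the endothelium score, with r = 0.70 (permutation adjusted p = 0.0253) and rho = 0.67 (permutation adjusted p = 0.0461). Its r was 0.67 with slide means removed, 0.60 in exposed and 0.82 in sham arrays. Without the 2 farthest arrays r was 0.48 (unadjusted permutation p = 0.0734), so that its size depends in part on those arrays. Cidec and Adipoq went with the dermal matrix score over the 16 arrays that remained when sham replicate 5, which stood apart on it, was left out (r = 0.66 and 0.63, permutation adjusted p = 0.045 for both). By rank they did not pass (rho = 0.57 and 0.59, permutation adjusted p = 0.0972 for both). Without the 2 farthest arrays r was 0.51 and 0.41 (unadjusted permutation p = 0.0609 and 0.15), so that the size of these too depends in part on those arrays. With slide means removed r was 0.58 and 0.42. In exposed arrays alone r was -0.057 for Cidec and 0.083 for Adipoq, and in sham arrays 0.83 and 0.74. The hair follicle score was also read over the 16 arrays without sham replicate 5, and no measured gene passed against it by r or by rank. The r ran from -0.05 for Cfd to 0.57 for Retn (permutation adjusted p = 0.0812). Without the 2 farthest arrays it ran from 0.05 for Lipe to 0.84 for Lpl, with Fabp4 at 0.75. The part of these tissues in the differences between exposed and sham skin was not tested.

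**Figure D5:**
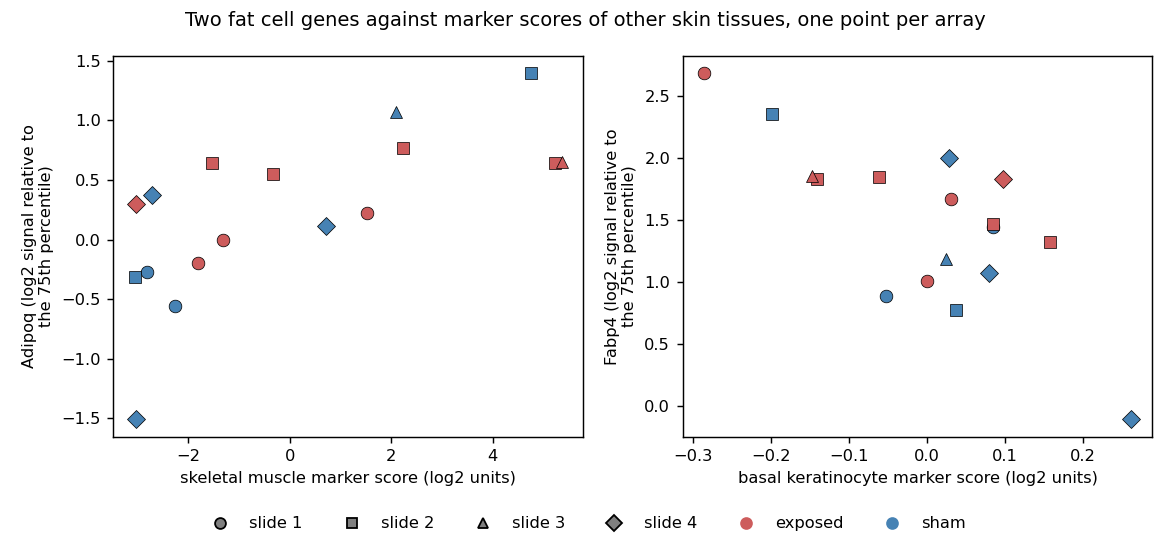
Left, Adipoq against the skeletal muscle score; right, Fabp4 against the basal keratinocyte score, 1 point per array, red for exposed and blue for sham, with symbols for the slide. Adipoq is higher where the muscle score is higher (r = 0.69) and Fabp4 lower where the keratinocyte score is higher (r = -0.75), and the array lowest in both genes is sham replicate 6.

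Beyond the 10 genes, 9 lists of 111 genes of fat cell pathways were read from the same fit. Of their genes 91 were measured, 47 with the higher and 44 with the lower mean in exposed skin, against 38.7% of all probes with the higher mean. None passed the adjusted threshold (limma, smallest adjusted p = 0.983), and 4 had an unadjusted p under 0.05, against 4.55% of all probes, with a median log2 difference of 0.015 against -0.02 over all probes. By list, the median r with the mean of the measured fat cell genes ran from -0.22 for transcription factors to 0.30 for lipolysis.

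The transcription factors that control fat cell formation had 3 of 15 measured genes higher and 12 lower, with a median of -0.06. Ppargc1b, a coactivator, was at -0.23 (95% interval -0.44 to -0.028) and Gata2, which restrains fat cell formation, at 0.21 (0.0099 to 0.42, and 0.05 with the normexp correction). In the fatty acid uptake list 8 of 11 were higher. The fatty acid receptor Cd36 was at 0.35 (0.051 to 0.65, limma unadjusted p = 0.0246, adjusted p = 0.983), and Aqp7 at 0.62 (-0.20 to 1.44), or 0.10 under normexp and 0.30 without sham replicate 6.

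In the list of fatty acid and triglyceride synthesis 7 of 15 were higher and 8 lower, with a median of -0.01. Pck1, which supplies the glycerol backbone of triglyceride in fat cells, was at 0.82 (-0.24 to 1.88) and the phosphatidate phosphatase gene Lpin1 at 0.31 (-0.094 to 0.72). They were well above background on 9 and 12 of the 17 arrays, and both turned negative under normexp, to -0.03 and -0.08. Lpin1 was at 0.20 without sham replicate 6. Genes of lipolysis were higher in 6 of 10, with the beta adrenergic receptor Adrb1 at -0.37 (-0.60 to -0.13, limma unadjusted p = 0.00415, adjusted p = 0.983) and the regulatory kinase subunit Prkar2b at 0.16 (-0.037 to 0.37). Adrb1 had the smallest unadjusted p of the 91 genes.

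Of the genes of the droplet coat and droplet growth 3 of 7 were higher, with Ldaf1, which helps to form droplets, at -0.18 (-0.37 to 0.007) and Fitm1, a fat storage protein of muscle, at 0.59 (-1.31 to 2.48). Fitm1 was at 0.11, 0.15 and 0.38 without exposed replicates 8 and 4 and sham replicate 2 in turn, and at 1.08 without sham replicate 3. In the list of insulin and glucose uptake 3 of 8 were higher, with the insulin receptor substrate Irs1 at -0.17 (-0.36 to 0.026) and Trarg1, a partner of the glucose transporter, at 0.32 (-0.19 to 0.83), well above background on 8 arrays. Trarg1 was at -0.02 under normexp and at 0.15 without sham replicate 1. Among other adipokines and adipokine receptors 10 of 13 were higher, with the adiponectin receptor Adipor1 at -0.06 (-0.16 to 0.045) and Rarres2, which encodes chemerin, at 0.21 (-0.19 to 0.60). Without sham replicate 5 these were -0.036 and 0.37, and Rarres2 was at 0.13 without sham replicate 2.

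Of the 10 listed genes of brown and beige fat 5 were measured, no probe was matched for 2, and the probes of 3 did not pass the filter on dim signals. Ucp1, the uncoupling protein that defines brown fat, was well above background on 0 of the 17 arrays, Dio2 on 6, and the coactivator gene Ppargc1a, from the list of transcription factors, on 4. Of the 5 measured genes 3 were higher, with Cox8b, a respiratory subunit of muscle and brown fat, at 1.11 (-1.58 to 3.80) and an SD of 2.77 over the arrays, and Elovl3 at 0.07 (-0.087 to 0.23). Elovl3 also stands in the sebaceous gland list, and its r with the mean of the measured fat cell genes was -0.27. Cox8b was at 0.49 and 0.56 without exposed replicates 8 and 4 in turn and at 1.81 without sham replicate 3, and Elovl3 at 0.031, 0.045 and 0.043 without sham replicates 1 and 3 and exposed replicate 6 in turn. Of the genes of fat cell precursors 4 of 7 were higher, with Dpp4 at -0.14 (-0.38 to 0.09) and Cd34 at -0.15 (-0.48 to 0.18), and Dlk1 was well above background on 5 arrays. Without sham replicate 5 Dpp4 was at -0.082 and Cd34 at -0.065, and without exposed replicate 5 Cd34 was at -0.10. The leptin receptor gene Lepr, like Lep, was dim, and its 2 probes were well above background on 1 and 0 arrays.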

How the data were processed

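The scanner files hold fluorescence intensity per spot on a linear scale, obtained by the authors with Agilent Feature Extraction 10.7.3.1 and the protocol GE1_107_Sep09, per the file headers; signals were background-corrected by that software array by array, without scaling across arrays. Deposited flags of 0 or 1 mark spots well above background, saturated or non-uniform. The deposited value table holds log2 values of 14853 probes, centred per probe; its columns had medians of -0.037 to 0.041 and correlated at 0.981 to 0.999 with scanner values centred alike (slopes 0.96 to 1.01). Its scale and direction follow from that, while its scaling step is not given in the sources used here.

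Values are log2 of the processed signal minus the 75th percentile of non-control spots. Flagged spots were dropped and the spots of a probe averaged. Probes well above background (at least 50% of spots) on at least 8 arrays were kept, 20710 of 30367. Of a gene with several kept probes the one with the highest mean was read. The test was limma 3.58.1 (R 4.3.3), fitted over all kept probes, adjusted by Benjamini-Hochberg at 0.05; the fit was tested on simulated data. Correlations used 100000 resamples. The normexp alternative ran on the median signal, since the files used here give no mean. Members and lists were chosen with earlier results of these data known. Named are the 10 genes, the 2 of smallest p in each pathway list, and the 12 most and 4 least like genes. The number of arrays limits the precision.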

Additional observations from a re-analysis of the deposited data

Results flagged for a closer look

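Among 14 combinations of a measured gene and a group, 2 held an array far from the rest, both times exposed replicate 3; chance marks about 1 group in 20. Its Fabp4 value lay above the other 8 exposed arrays by a gap of 0.495 of the range of the group, and its Lpl value by 0.586. Without that array Lpl differed by 0.06 between exposed and sham skin.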

How the results depend on the processing

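No paired analysis was possible because the labels give no replicate numbers, and those used here follow accession order; slide, which both groups share, was used as a block. No probe passed the adjusted threshold under slide as a fixed or random block, quantile or median scaling, normexp, either filter on dim probes, array weights, the authors' value table or the loss of any array. The median difference of the fat cell genes ranged from 0.23 under normexp to 0.39 with array weights, and from 0.14 without sham replicate 6 to 0.55 without sham replicate 3. Under normexp the sign turned for Lipe (-0.019), Trarg1 (-0.020), Pck1 (-0.033) and Lpin1 (-0.076); averaging both probes put Lipe at -0.0017, and leaving out single arrays put it between -0.012 (without exposed replicate 3) and 0.085 (without sham replicate 7). The cause was not tested. The value table holds no Cidec probe, and the filter on all 17 arrays removes Cidec. Dim probes (Cidec, Aqp7, Pck1, Trarg1) have sizes that depend on the background correction.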
